A study of Mus musculus with 27 samples.

Results

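Uterine RNA of F1 mice was compared 24 h and 2 h after an injection of 17β-estradiol (E2), the main ovarian estrogen. F1 here means the first generation of C57BL/6 (B6) crossed with C3H/HeJ (C3H). The comparison rests on 6 of the 27 arrays of the study, the 3 titled F1 E2 24 h and the 3 titled F1 E2 2 h, and the titles alone chose them. All animals were females aged 8 weeks whose ovaries had been removed 1 to 2 weeks before treatment. The 24 h and 2 h groups had each received E2 intraperitoneally at 40.0 µg per kg body weight in saline with ethanol. The 3 F1 vehicle arrays, from animals given ethanol and saline alone, are shown for orientation, and the labels give no collection time for them. B6 and C3H arrays of the same treatments, 3 per strain and time, were used for the tests of strain differences. The labels state 3 animals per group but tie no array to an animal and do not say whether tissue was pooled, so p-values here measure only the spread between these samples.

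Estradiol acts on the uterus mainly through estrogen receptor α, a transcription factor encoded by Esr1. Its early phase brings rapid transcription of immediate early genes and growth factors, vascular leakage and water uptake. The later phase brings DNA synthesis, mitosis and secretion, chiefly in the luminal epithelium. A direct comparison of a late with an early time after E2 therefore sets genes of the growth and secretory phase against genes of the first wave.

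Whole uterus was hybridised to Agilent arrays, and each value is a log2 signal minus the 75th percentile of its array, so that a level of 0 equals that percentile. Levels of different genes are not compared, because probes differ in brightness. On the 6 E2 arrays, 72.4% to 75.8% of probes were well above background, replicates correlated across genes at r = 0.994 to 0.996, and at most 132 genes of an array departed from the mean of its group by more than 1 log2 unit. RNA of whole tissue was measured, so fewer cells of a type and less RNA per cell cannot be told apart. Markers of the uterus were present at both times. The stromal Hox gene Hoxa10 averaged 2.91 at 24 h and 1.42 at 2 h. The epithelial keratin gene Krt8 averaged 6.40 at 24 h and 4.50 at 2 h, and the smooth muscle myosin gene Myh11 5.74 at 24 h and 5.08 at 2 h. Of 8 ovary and oviduct markers measured, most were far below the 75th percentile, with mean levels over the list of −4.45 to −4.14 at 24 h and −4.61 to −4.28 at 2 h. H2-Ea, a class II histocompatibility gene inactive in the B6 strain, was well above background on 1 of 3 arrays at 24 h and on 1 of 3 at 2 h. Nnt, a mitochondrial transhydrogenase gene deleted in one B6 substrain, stood at 1.76, 1.80 and 1.83 at 24 h, against 1.18, 1.09 and 1.17 at 2 h.

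A limit of the layout touches every result below. All 3 arrays of the 24 h group lay on one slide (slide 7) and all 3 of the 2 h group on another (slide 6), so that slide and time cannot be told apart within F1. Measurements that bear on it come from other arrays. The third F1 vehicle array lay on slide 6, and the first and second on slide 5. Across slides 6 and 5 it lay over 1 log2 from the first vehicle array in 594 genes and from the second in 389, where the pair on slide 5 lay that far apart in 503 genes and the first arrays of 24 h and 2 h in 5769. No such measurement covers slide 7. In B6, slide 2 held 2 arrays of each time, and in C3H, slide 4 held 1 array at 24 h and 3 at 2 h. Of the 5382 genes that changed at least 2-fold in F1, 98.8% had the same sign inside the B6 slide and 98.0% inside the C3H slide, where over all genes tested the shares were 85.2% and 86.5%. Within-slide values are given beside several results and in the plot of list medians by strain.

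Much of the transcriptome differed between the times. Of 21861 genes tested with limma, 14990 (68.6%) passed a Benjamini-Hochberg adjusted p of 0.05, 8390 of them higher at 24 h (38.4%) and 6600 lower (30.2%). These shares are the background for every count below, and the median change over all genes was 0.13 log2. At least a 2-fold change was reached by 2797 called genes upward and 2585 downward (24.6% in all), at least 4-fold by 658 and 671, at least 16-fold by 48 and 56, and at least 32-fold by 17 and 18. The 3 arrays of one time all lay above the 3 of the other for 16330 genes (74.7%).

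The largest rises among genes well above background on every array were in Sprr2f, Wfdc18 and Trpv6. Sprr2f, a small proline-rich protein of the cornified envelope family that is a classic estrogen-induced transcript of the uterine epithelium, stood at 5.98, 5.89 and 6.22 on the 24 h arrays, against −0.67, 0.40 and −1.24 on the 2 h arrays and 0.09, 0.85 and −0.20 on the vehicle arrays. The 24 h arrays formed a tight group far above all others, and the gene was 92.5-fold higher at 24 h (log2 6.53, SE 0.33, limma adjusted p = 4.78e-13). Sprr2 genes are close relatives, and a probe can take up signal from more than one of them. Wfdc18, a whey acidic protein-type protease inhibitor gene, stood at 1.03, 1.00 and 0.39 at 24 h, against −5.62, −5.35 and −5.60 at 2 h (80.4-fold). Trpv6, an apical calcium channel gene, stood at 2.67, 3.01 and 2.74 at 24 h, against −3.04, −2.89 and −3.65 at 2 h and −0.93, −0.70 and −1.25 with vehicle. It was 63.9-fold higher at 24 h than at 2 h, and its 2 h arrays lay below every vehicle array.

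The other rises named by the same rule ran between 22.2-fold and 37.7-fold. Besides keratins, they held Tmprss4, a transmembrane serine protease (4.47 log2), Muc4, a membrane mucin (4.56), Ltf, the iron-binding secreted protein lactoferrin (4.50), Fam3b, a secreted cytokine-like protein (4.73), Sprr1a (4.63), Serpina9, a serine protease inhibitor (4.63), and Il1f8, an epithelial cytokine of the interleukin-1 family (4.58). Ltf stood at 5.13, 5.57 and 5.32 at 24 h, against 1.18, 0.95 and 0.40 at 2 h. Crtac1, which encodes an extracellular matrix protein of cartilage, rose by 4.85. Muc4 was measured by 5 probes, which ran from 2.73 to 4.83. Among the 14 rises the largest limma adjusted p was 0.00185 (Krt5).

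Krt5 and Krt14 stood apart from the other leading rises. Krt5, a keratin of basal and squamous epithelia, stood at 4.19, 2.64 and −1.91 on the 3 arrays at 24 h, against −3.96, −3.74 and −3.08 at 2 h and 0.42, −4.10 and −3.20 with vehicle. Krt14, its pairing partner, stood at 2.75, 1.46 and −2.46 at 24 h, against −4.22, −4.61 and −4.26 at 2 h. Both were high on 24 h arrays 1 and 2 and stood closer to the 2 h arrays on 24 h array 3, and Krt5 was also raised on vehicle array 1. With arrays 1 and 2 left out the changes were 1.69 for Krt5 and 1.91 for Krt14, with limma adjusted p of 0.39 and 0.255, and neither was called. Within one slide of a parent strain, Krt5 differed by 5.65 (B6) and 2.26 (C3H).

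The largest falls belonged to genes whose 2 h levels lay far above vehicle. Myh7, the slow cardiac and skeletal myosin heavy chain gene, stood at −4.33, −5.17 and −4.60 at 24 h, against 2.14, 2.51 and 2.11 at 2 h and −3.05, −2.89 and −2.98 with vehicle. This was a 124-fold lower level at 24 h (log2 −6.95, SE 0.20, limma adjusted p = 1.09e-16), and the 24 h arrays lay below the vehicle arrays as well. Slc9a2, a sodium-proton exchanger gene, stood at −4.28, −4.73 and −4.11 at 24 h, against 1.87, 2.08 and 1.69 at 2 h. Gdf15, which encodes a circulating TGF-β family member made under cell stress, stood at −1.95, −2.26 and −1.90 at 24 h, against 3.76, 4.17 and 4.08 at 2 h and −2.80, −3.05 and −3.16 with vehicle. It was 65.6-fold lower at 24 h than at 2 h and still above vehicle on each 24 h array.

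Further falls came from several gene classes. Arc, an activity-induced gene best known from neurons, fell by 5.87 log2, and its arrays at 24 h (−2.42, −3.12 and −2.93) overlapped those of vehicle (−2.40, −3.01 and −2.73). Pgf, the placental growth factor gene and a ligand of VEGF receptor 1, stood at −1.99, −2.08 and −2.03 at 24 h, against 2.97, 3.27 and 2.92 at 2 h. Grin2c, a glutamate receptor subunit (−5.05), Kcne2, a potassium channel subunit (−5.06), and Rem2, a small GTPase that restrains calcium channels (−5.28), fell too. Trim15 (−5.70), Nkpd1 (−5.40), Phyhip (−5.13), Csrnp3 (−5.07) and Pitpnm3 (−4.97) filled the list together with Egr3, treated below. A second probe gave a smaller fall for Slc9a2 (−4.03) and for Csrnp3 (−2.74). The largest limma adjusted p among these 14 falls was 9.29e-07 (Trim15).

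**Figure D1:**
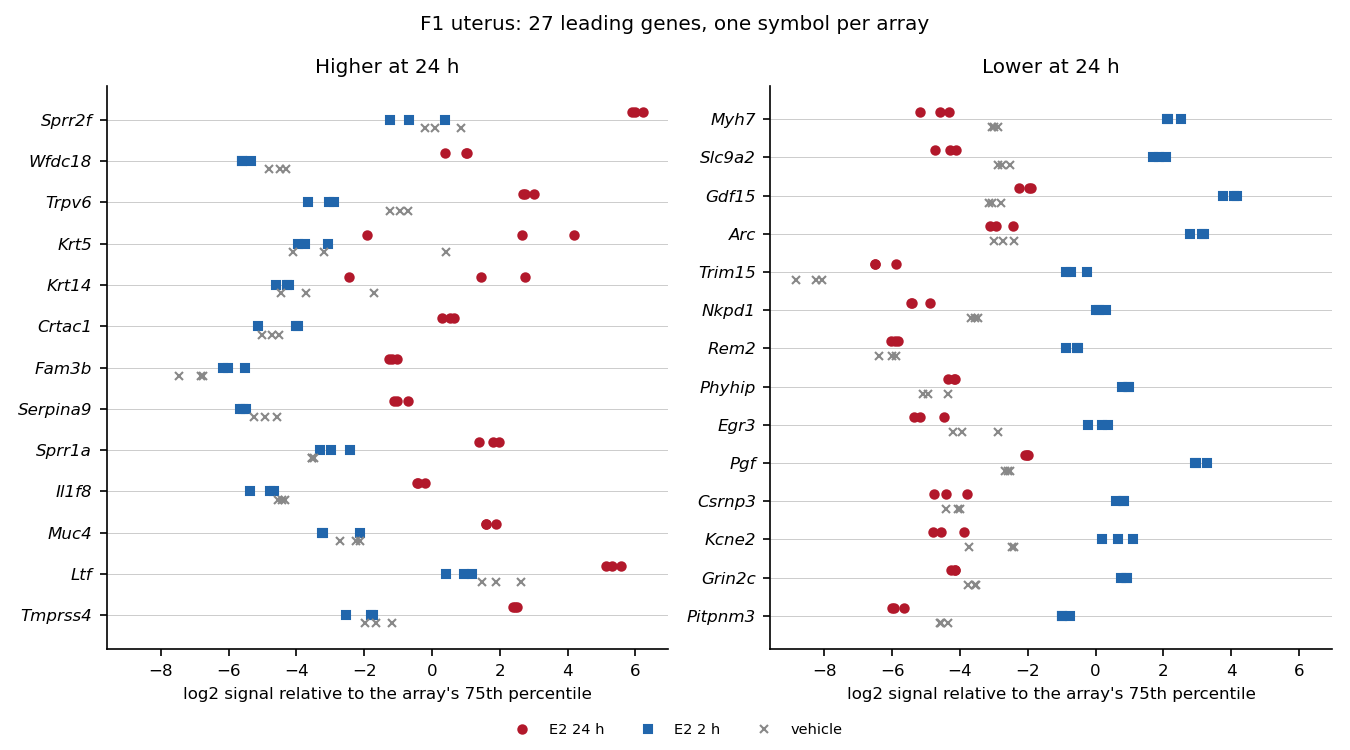
Log2 signal relative to the 75th percentile of the array (x axis) for 13 of the genes with the largest rise (left) and the 14 with the largest fall (right), 1 symbol per F1 array, with 24 h as circles, 2 h as squares and vehicle as crosses. The 24 h and 2 h symbols do not overlap for any of the 27 genes; the 24 h symbols of Krt5 and Krt14 are spread widely, and the 24 h means of the fallen genes lie at most 0.57 above the vehicle means, except in Gdf15 (0.97) and Trim15 (2.08).

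For some genes one time was not well above background, and the fold is then a lower bound under the main background correction. It sets the mean of the bright group against the higher, per array, of the dim signal and the dimmest signal called well above background. Sprr2d was at least 223-fold higher at 24 h, with 1.06, 0.85 and 1.24 at 24 h and no array above background at 2 h. Naip1, an innate immune receptor of the inflammasome, was at least 26.8-fold higher, the gasdermin gene Gsdmc2 at least 17.1-fold and Ankrd22 at least 14.5-fold. In the other direction Gad2, a glutamate decarboxylase gene, was at least 16.3-fold lower at 24 h, Apol8 at least 15.3-fold, Scnn1g, the γ subunit of the epithelial sodium channel, at least 14.2-fold and Caskin1 at least 13.8-fold. A second Apol8 probe fell by only 0.51 log2.

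The size of a fold depends on the background correction where signals are low. It was tried with normexp correction and an offset, which pulls dim signals together. Of the 115 genes named for the largest changes, over all genes or within a list, 34 had log2 changes over 1.5 times smaller than those given here. All 34 kept their direction and call. The log2 change of Fam3b was 2.54 instead of 4.73, that of Pitpnm3 −2.67 instead of −4.97 and that of Egr4 −3.75 instead of −7.03. Genes given with a lower bound changed by less than that bound with normexp. Their log2 changes were then 4.66 for Sprr2d, 2.15 for Naip1, 1.76 for Gsdmc2 and −1.71 for Gad2. The bounds here and below thus hold only for the main background correction.

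Lists of genes with shared roles were then read as counts and medians, each against the shares and the median over all genes above. The immediate early transcription factors, which serum, growth factors or hormones switch on without new protein synthesis, were lower at 24 h almost throughout. Of 25 measured, 24 fell and 1 rose, with a median of −2.37 (background 30.2% lower, 38.4% higher). Relative to vehicle their median was 0.06 at 24 h and 2.50 at 2 h, so the typical member stood near its vehicle level at 24 h. The median was −2.60 inside the B6 slide and −2.79 inside the C3H slide.

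By their main probes, Egr4, Egr3 and Fos had the largest falls of the list. Egr4, a zinc finger factor, stood at −6.33, −7.55 and −7.26 at 24 h, where 1 of 3 arrays was well above background, against 0.36, 0.08 and −0.49 at 2 h (131-fold by the fit). Fos, a subunit of the AP-1 factor, stood at −2.28, −2.03 and −2.05 at 24 h, against 2.66, 2.70 and 2.52 at 2 h and −1.86, −2.90 and −2.86 with vehicle. It was 26.8-fold lower at 24 h (SE 0.20 log2, limma adjusted p = 2.45e-14), with no overlap between the times. Egr3 fell by 5.11 with its main probe and by 2.04 with a second one. Fosl1, another AP-1 subunit, fell by 4.30, Atf3, a stress-induced factor, by 4.26, Gadd45g, a growth arrest gene, by 4.06 and Egr1 by 3.44.

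The size of the fall was uneven within the list. Junb (−2.27), Jun (−2.14) and Srf (−2.04), the serum response factor, fell by similar amounts, and Klf6 by 0.72. Myc, a growth-promoting factor, stood at 1.92, 1.80 and 1.74 at 24 h, against 1.98, 2.18 and 2.11 at 2 h, a change of −0.27 (limma adjusted p = 0.0421). The single rise was Klf2 at 0.59, and its probes disagreed in sign, with −2.25 from the other one.

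The promoters of the pair of immediate early genes with the largest fall and a promoter entry are shown because these genes switched most between the times. Sequences are the 250 bases before the RefSeq start site on GRCm38.p6, 5′ to 3′ on the strand of the gene, with matches to the motifs named further below in capitals. Egr4 lies on the minus strand (chr6:85513590-85513839) and Fos on the plus strand (chr12:85473640-85473889).
Egr4: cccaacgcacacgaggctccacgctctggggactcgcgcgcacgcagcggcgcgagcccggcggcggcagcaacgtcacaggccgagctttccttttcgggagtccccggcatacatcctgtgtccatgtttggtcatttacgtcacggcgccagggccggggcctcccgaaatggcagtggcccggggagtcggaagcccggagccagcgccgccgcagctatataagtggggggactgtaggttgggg
Fos: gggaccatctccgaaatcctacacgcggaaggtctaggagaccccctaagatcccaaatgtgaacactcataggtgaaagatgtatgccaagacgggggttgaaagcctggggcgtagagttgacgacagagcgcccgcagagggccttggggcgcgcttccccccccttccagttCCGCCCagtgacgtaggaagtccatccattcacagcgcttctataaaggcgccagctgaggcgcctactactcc
The Egr4 stretch held none of the searched motifs, and the Fos stretch held 1 GC box (GGGCGG), read on the minus strand, that begins 74 bases before the start.

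Negative regulators of MAP kinase signalling are themselves induced by that pathway and damp it. Of 13 measured, 8 fell and 2 rose, with a median of −0.97 at 24 h against 2 h. Errfi1, an inhibitor of the EGF receptor, stood at 1.77, 1.82 and 1.68 at 24 h, against 5.46, 5.69 and 5.56 at 2 h and a vehicle mean of 2.09 (14-fold, limma adjusted p = 1.58e-17). Spry4, an inhibitor of receptor tyrosine kinase signalling, fell by 3.72, and the MAP kinase phosphatase genes Dusp8 and Dusp1 by 3.06 and 3.01. Dusp14 rose by 0.75 and Spry1 by 0.43. Spry2 fell by 1.70 with its main probe, and its other probe gave 0.22. The median stood at −0.33 relative to vehicle at 24 h and at 0.75 at 2 h.

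EGF and IGF family genes did not move as a block. Of 19 measured, 11 rose and 8 fell, the median was 0.27 and the mean −0.07. Igfbp1, which encodes a binding protein for insulin-like growth factors, was at least 13.2-fold lower at 24 h, with no 24 h array above background, against −3.20, −2.84 and −3.25 at 2 h. Igfbp3, another such protein, stood at 0.75, 0.29 and 0.69 at 24 h, against 3.34, 3.15 and 3.22 at 2 h and 3.77, 3.65 and 3.76 with vehicle, so it lay below both. The ligand gene Hbegf fell by 1.77 and the receptor gene Egfr by 1.07, while the ligand gene Btc rose by 2.14 (well above background on 2 of 3 arrays at 2 h) and the receptor gene Erbb3 by 2.04. Igf1, the stromal growth factor gene of the estrogen response, rose by 0.54 with its brightest probe but had another probe at −2.65, and its direction is uncertain here.

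Vascular ligands and receptors also changed in both directions, with 9 higher and 10 lower of 26, near the shares of all genes (38.4% and 30.2%). The list had a median of −0.06 and a mean of −0.47. The permeability factor gene Vegfa stood at 1.13, 1.03 and 1.15 at 24 h, against 4.57, 4.82 and 4.71 at 2 h and 1.85, 1.75 and 1.70 with vehicle. It was 12.1-fold lower at 24 h (limma adjusted p = 3.27e-16), below the vehicle arrays. Adm, which encodes the vasodilator adrenomedullin, fell by 2.38, its co-receptor gene Ramp3 by 1.79 and Apln, the ligand of the apelin receptor, by 1.84. Aplnr, that receptor, rose by 2.66, with −0.02, −0.12 and 0.19 at 24 h, against −2.57, −2.58 and −2.77 at 2 h. The VEGF receptor gene Kdr (−0.52) and its co-receptor gene Nrp2 (−1.71) fell. Of 8 endothelial markers, 1 rose and 4 fell (median −0.26), and their part in these values was not tested. The list median was −0.10 to 0.05 with one array left out, and above 0 without 24 h replicate 2.

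DNA replication genes were higher at 24 h without exception among those measured. All 27 members tested rose, with a median of 1.69 at 24 h against 2 h, and relative to vehicle their medians were 1.70 at 24 h and 0.18 at 2 h. Inside one slide the median was 1.89 in B6 and 1.36 in C3H. Tk1, thymidine kinase, stood at 2.13, 2.12 and 2.15 at 24 h, against −1.71, −1.54 and −1.59 at 2 h and −1.74, −1.90 and −2.22 with vehicle (13.4-fold, limma adjusted p = 1.63e-13). Mcm10, a replication initiation factor, rose 12.5-fold, Uhrf1, which carries DNA methylation through replication, 10.1-fold and Orc1, the origin recognition subunit, 7.70-fold. The replicative helicase genes ran from Mcm4 at 0.82 to Mcm5 at 2.28. Pcna, the sliding clamp, rose by 0.70 and Pole, a polymerase subunit, by 0.38, the smallest rise of the list.

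Genes of mitosis rose more. Of 29 measured, 28 were higher at 24 h and 1 was lower, with a median of 2.81, and relative to vehicle the medians were 3.27 at 24 h and 0.54 at 2 h. Ccnb1, the main mitotic cyclin, stood at 0.09, 0.29 and 0.17 at 24 h, against −4.22, −3.31 and −3.82 at 2 h and −4.54, −4.18 and −4.82 with vehicle. It was 15.6-fold higher at 24 h (log2 3.97, SE 0.29, limma adjusted p = 1.27e-10). Ccnb2 rose by 3.52, Birc5, the chromosomal passenger protein survivin, by 3.52, Ube2c, a ubiquitin-conjugating enzyme of mitotic exit, by 3.41 and Aurkb, the passenger kinase, by 3.18. The smallest rise was that of the spindle factor Tpx2 (1.92).

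Mad2l1, a spindle checkpoint gene, was the exception. It stood at 0.59, 0.60 and 0.62 at 24 h, against 2.83, 2.98 and 3.00 at 2 h, a fall of 2.33 (limma adjusted p = 2.83e-13). Both of its probes gave the same fall, and it lay 2.20 above vehicle at 24 h and 4.53 above it at 2 h. It also fell inside the slides of the parents, by 2.17 in B6 and 2.71 in C3H. Its promoter held the GC box and none of the other motifs below, and the same was true of Birc5, which rose.

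The promoters of the mitotic genes with the largest rise are shown in the same form as those of Egr4 and Fos, as the opposite end of the switch. Ccnb1 (chr13:100786487-100786736) and Ccnb2 (chr9:70421555-70421804) both lie on the minus strand.
Ccnb1: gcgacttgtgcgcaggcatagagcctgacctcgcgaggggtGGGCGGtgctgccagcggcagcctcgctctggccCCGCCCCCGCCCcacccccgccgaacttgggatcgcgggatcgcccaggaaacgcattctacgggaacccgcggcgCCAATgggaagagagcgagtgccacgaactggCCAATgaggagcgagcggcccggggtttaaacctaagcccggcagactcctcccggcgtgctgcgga
Ccnb2: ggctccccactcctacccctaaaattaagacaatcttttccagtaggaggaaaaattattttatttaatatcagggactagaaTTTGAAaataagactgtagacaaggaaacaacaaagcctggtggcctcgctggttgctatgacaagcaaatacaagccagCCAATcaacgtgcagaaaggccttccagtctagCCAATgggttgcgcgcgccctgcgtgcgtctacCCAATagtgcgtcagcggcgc
In the Ccnb1 stretch CCAAT occurred 99 and 67 bases before the start and the GC box 3 times, at 209, 175 and 169 bases. In the Ccnb2 stretch CCAAT occurred 3 times, at 87, 54 and 21 bases, and TTTGAA once, at 167 bases.

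Motifs were searched on both strands in the 300 bases around each RefSeq start (250 before to 50 after), as letters only. A match is no evidence that a factor binds, and matches of different motifs may share bases. Sites that differ by a base or lie outside the window were not found, so a missing match does not show that a promoter lacks a site. CCAAT, the core of the NF-Y site, was held by 18 of 24 mitosis genes with an entry (75%), by 15 of 22 DNA replication genes (68.2%) and by 8 of 20 immediate early genes (40.0%). It was held by 37.9% of all 27025 RefSeq promoters and by 38.3% of the 13253 tested genes with an entry. TTTGAA, the cell cycle homology region of late cell cycle promoters, was held by 17 of 24 mitosis genes (70.8%), 3 of 22 replication genes (13.6%) and 1 of 20 immediate early genes (5.0%), with 13.4% among tested genes.

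An E2F motif (TTTGGCGC or TTTCGCGC) was held by 8 of 22 replication genes (36.4%), 1 of 24 mitosis genes (4.2%) and 1 of 20 immediate early genes (5.0%), with 1.3% among tested genes. The GC box was common in all 3 lists (83.3% of mitosis, 68.2% of replication and 75% of immediate early genes) and in 56.8% of tested genes. TGACGTCA, the cyclic AMP response element, was held by 1 of 20 immediate early, 2 of 24 mitosis and 1 of 22 replication genes, with 2.8% among tested genes. The serum response CArG box was held by 1 of 20 immediate early genes, 1 of 22 replication genes and no mitosis gene, with 1.4% among tested genes. The palindromic estrogen response element was held by none of the members of the 3 lists and by 18 of all 27025 promoters. Among called genes that were at least 4-fold higher at 24 h, 50.2% of 432 held CCAAT and 27.5% held TTTGAA. Among those at least 4-fold lower, the shares were 34.4% and 9.7% of 331. The mitosis genes are themselves among the risers, so these last shares are not separate from theirs.

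Of 22 measured G1 regulators, which act upstream of replication, 16 rose and 4 fell (median 0.72). The activator E2f1 rose by 2.74, E2f2 by 3.01, the late repressor E2f8 by 2.58 and Ccne1, the S phase cyclin, by 2.10. The CDK inhibitor gene Cdkn1a (p21) fell most, with −1.21, −1.35 and −1.10 at 24 h, against 2.10, 2.19 and 2.14 at 2 h and −1.02, −1.24 and −1.36 with vehicle (10.2-fold, limma adjusted p = 3.36e-14). Its 24 h arrays lay within the range of the vehicle arrays. Cdkn1c (p57) also fell, by 1.66, and Ccnd2, a G1 cyclin, by 1.26, while Ccnd1 rose by 0.50.

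Ribosome assembly factors moved in both directions, with 11 higher and 13 lower of 25 and a median of −0.47. Both times stood above vehicle, with medians of 0.57 at 24 h and 0.81 at 2 h. Rrs1, a factor of the large subunit, stood at 0.93, 0.96 and 0.83 at 24 h, against 2.21, 2.57 and 2.56 at 2 h and a vehicle mean of 0.40 (2.91-fold, limma adjusted p = 4.41e-12). The nucleolar genes Gnl3 (−1.46), Nolc1 (−1.32) and Nop2 (−1.11) fell likewise. Dkc1, which takes part in pseudouridine formation, rose by 0.75, Fbl, fibrillarin, by 0.58 and Npm1, nucleophosmin, by 0.51. Ncl, Wdr12, Pes1, Polr1a and Utp20 had probes that disagreed in sign.

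Genes of protein folding and secretion in the endoplasmic reticulum were mostly higher at 24 h, 16 of 26 with 4 lower (median 0.61). Sdf2l1, a chaperone cofactor, stood at 2.27, 2.20 and 2.20 at 24 h, against −0.42, −0.18 and −0.01 at 2 h (5.37-fold). The translocon subunit gene Sec61b rose by 1.53 and the disulphide isomerase gene P4hb by 1.27. Herpud1, of the degradation pathway, fell by 1.14. Hspa5, the central chaperone BiP, stood at 5.66, 5.92 and 5.72 at 24 h, against 5.39, 5.86 and 5.83 at 2 h, did not pass the test (limma adjusted p = 0.646), and lay 1.34 above vehicle at 24 h and 1.27 at 2 h.

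Of the ATF4 list, which joins stress response and amino acid supply, 12 of 22 rose and 7 fell (median 0.34). Psat1, Phgdh and Psph, the enzymes of serine synthesis, rose by 2.59, 1.78 and 1.31, and Shmt2, an enzyme of one-carbon metabolism, by 1.36. Atf4 itself fell by 1.82, with Chac1, a glutathione-degrading enzyme (−2.66), the pseudokinase Trib3 (−2.05) and the amino acid transporter Slc7a5 (−2.03). Psat1 stood at 2.16, 2.30 and 2.11 at 24 h, against −0.65, −0.29 and −0.25 at 2 h, and Chac1 stood at −2.49, −2.63 and −2.60 at 24 h, against −0.16, −0.24 and 0.67 at 2 h. The largest limma adjusted p of these 8 genes was 1.13e-08 (Chac1).

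Cholesterol synthesis was higher at 24 h along nearly the whole pathway. Of 19 genes measured, 18 rose and none fell, with a median of 1.6, and relative to vehicle the medians were 2.00 at 24 h and 0.61 at 2 h. Fdps, which makes farnesyl pyrophosphate, stood at 3.35, 3.58 and 3.43 at 24 h, against −0.02, 0.22 and 0.46 at 2 h and 0.17, 0.05 and 0.13 with vehicle (9.41-fold, limma adjusted p = 7.94e-14). Mvd (3.01) and Mvk (2.95), enzymes of mevalonate metabolism, followed.

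**Figure D2:**
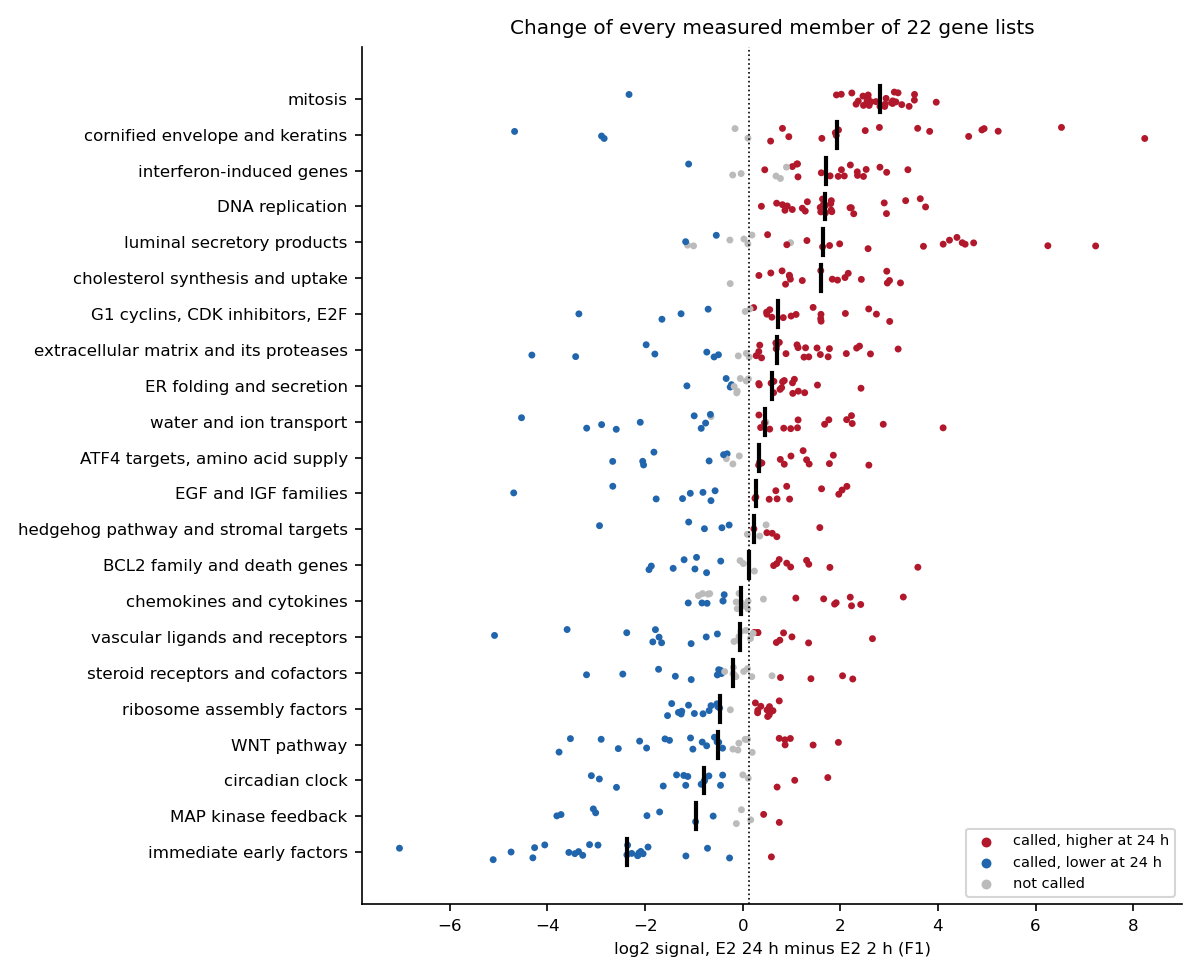
Change at 24 h against 2 h (log2, x axis) for every measured member of the 22 gene lists, 1 point per gene, colored by whether it was called higher, called lower or not called. Thick bars are list medians and the dotted line is the median of all genes (0.13); mitosis (2.81) and immediate early factors (−2.37) mark the ends.

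Epithelial differentiation products were among the steepest rises. In the cornified envelope and keratin list, 17 of 22 rose and 3 fell (median 1.94). Beside Sprr2f and Sprr2d, the simple keratins Krt8 (1.90), Krt19 (1.92), Krt7 (1.62) and Krt18 (0.95) rose. The 3 falls were in keratins with 2 h levels above vehicle: Krt4, of stratified mucosa, at −4.67, and the hair keratins Krt86 at −2.89 and Krt87 at −2.84. Krt86 stood at −1.17, −0.55 and −0.97 at 24 h, against 1.55, 2.28 and 2.16 at 2 h, and lay 4.36 above vehicle at 24 h. Some members are markers of squamous epithelium, which is no lining of the uterine horn, and Krt15 stood at 2.85, 1.35 and −2.40 at 24 h, against −3.25, −2.95 and −2.75 at 2 h, like Krt5 and Krt14. Without both arrays 12 of 22 rose and 3 fell, with a median of 1.61.

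Luminal secretory products rose in 16 of 25 cases and fell in 2 (median 1.64). Chil1, a secreted chitinase-like protein, stood at 0.03, 1.00 and 0.63 at 24 h, against −6.99, −4.94 and −8.12 at 2 h, where 1 of 3 arrays was well above background. Serpinb5, a serpin of epithelial cells, stood at 0.58, 0.31 and 0.53 at 24 h, against −4.95, −5.59 and −6.81 at 2 h, with 2 of 3 arrays above background. Muc1, the apical mucin, rose 18.9-fold, Lcn2, the siderophore-binding lipocalin, 17.2-fold, Cfb, complement factor B, 13-fold and C3, the central complement component, by 1.32 log2. The glandular protease gene Prss29 fell by 1.17. Of 6 gland markers measured, 1 rose and 3 fell (median −1.12), and 2 of them were not above background on any array at 24 h.

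Markers of the tissue layers mostly rose too, but they are not separate from the gene lists. Krt8, Krt18 and Krt19 are also in the keratin list, and Col1a1, Dcn and Lum in the extracellular matrix list. Of 11 epithelial markers, 10 rose (median 1.37), and their mean level per array was 2.23 to 2.49 at 24 h, 0.91 to 1.23 at 2 h and 1.15 to 1.45 with vehicle. Of 10 stromal markers, 8 rose and 1 fell (median 1.36), with mean levels of 4.06 to 4.21 at 24 h, 2.96 to 3.08 at 2 h and 4.03 to 4.08 with vehicle. Of 9 myometrial markers, 7 rose and 1 fell. The fall was in Oxtr, the oxytocin receptor, with −4.04 at 24 h, −0.17 at 2 h and −4.36 with vehicle as group means. The part of these layers in the list results was not tested.

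Squamous and adipocyte markers varied between replicates. Of 5 squamous markers, 4 rose and 1 fell (median 1.96), and the mean level per array ran from −3.13 to 0.09 at 24 h, −3.33 to −2.96 at 2 h and −3.92 to −2.34 with vehicle. None of 7 adipocyte markers was called, though their median was −1.82, and their mean levels ran from −2.13 to −0.55 at 24 h, −1.05 to 1.40 at 2 h and −0.06 to 2.20 with vehicle. One of them fell at an unadjusted p under 0.05. Inside one slide the adipocyte median was 0.30 in B6 and 0.61 in C3H. Of 6 liver transcripts, none rose and 2 fell.

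**Figure D3:**
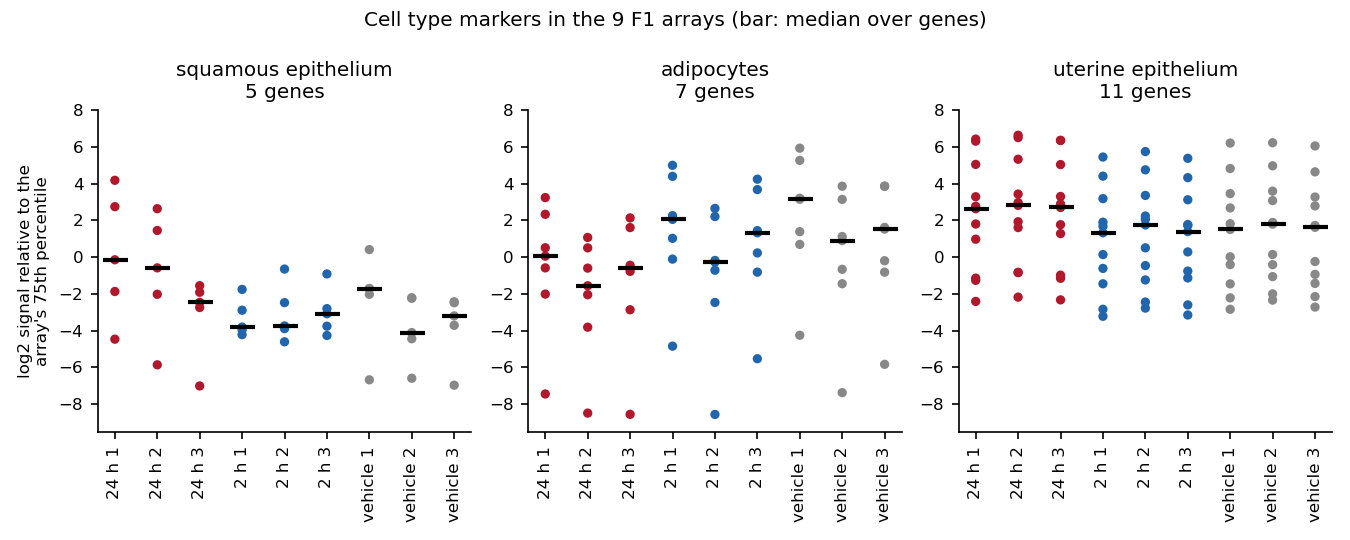
Levels (log2 signal relative to the 75th percentile, y axis) of squamous, adipocyte and uterine epithelial markers on each of the 9 F1 arrays (x axis), 1 point per gene, with bars at the median over genes. Squamous markers are high on 24 h arrays 1 and 2 and not on array 3; adipocyte markers vary within every group; the epithelial markers are uniform within groups and higher at 24 h.

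Of 26 measured genes of water and ion transport, which sets luminal fluid, 15 rose and 9 fell (median 0.46). Car2, a carbonic anhydrase, stood at 5.58, 5.63 and 5.61 at 24 h, against 1.50, 1.79 and 1.22 at 2 h and 2.07, 2.23 and 1.78 with vehicle (17.2-fold, limma adjusted p = 4.34e-15). Cftr, the chloride and bicarbonate channel, rose 7.36-fold. The water channel genes Aqp5 and Aqp8 fell by 2.89 and 2.59 from their 2 h levels but stayed 2.52 and 2.18 above vehicle. The sodium channel subunit Scnn1a stood at −2.16, −2.41 and −2.44 at 24 h, against 0.82, 1.02 and 0.74 at 2 h and −0.86, −0.64 and −1.21 with vehicle, so that at 24 h it lay below both.

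Of 33 measured genes of the extracellular matrix and its proteases, 23 rose and 7 fell (median 0.70). Col1a1, of type I collagen, stood at 6.66, 6.58 and 6.69 at 24 h, against 3.62, 2.93 and 3.83 at 2 h and 3.90, 4.05 and 4.17 with vehicle (9.09-fold, limma adjusted p = 1.81e-09). Col3a1 rose by 2.62 and Col1a2 by 2.34. The aggrecanase gene Adamts4 averaged −1.55 at 24 h and 2.77 at 2 h, and fell 20.0-fold. Among hyaluronan synthase genes, Has1 fell by 3.42 and Has2 rose by 2.12, to −1.03 relative to vehicle. Dcn, decorin, fell by 0.59 with its brightest probe while another gave 2.46.

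WNT pathway genes were more often lower than higher at 24 h, with 16 falls and 6 rises among 28 (median −0.51). Wif1, a secreted WNT inhibitor, stood at −4.43, −2.74 and −3.58 at 24 h, against 0.26, 0.18 and 0.09 at 2 h and −0.14, 0.16 and 0.11 with vehicle. Its 2 h arrays lay close to the vehicle arrays, and its 24 h arrays far below both. The ligand gene Wnt4 stood at −0.35, −0.39 and −0.50 at 24 h, against 2.91, 3.27 and 3.17 at 2 h and −0.11, −0.15 and 0.10 with vehicle (11.6-fold, limma adjusted p = 1.86e-15). Axin2, a feedback target of canonical WNT signalling, fell by 2.55 and Lef1, a nuclear effector, by 1.50. Wnt10b was at least 2.00-fold lower, with no 24 h array above background. The ligand gene Wnt5a (1.44) and the receptor gene Fzd1 (1.96) rose.

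In the hedgehog pathway, by which the epithelium signals to the stroma, 5 of 13 rose and 5 fell (median 0.23, mean −0.08). These counts lie near the shares of all genes (38.4% higher, 30.2% lower). The epithelial ligand gene Ihh stood at −3.16, −3.44 and −3.36 at 24 h, against −0.60, −0.17 and −0.38 at 2 h and −1.85, −1.04 and −1.35 with vehicle, a 7.64-fold fall (limma adjusted p = 4.57e-10). The transcription factor genes Gli1 and Gli2 fell by 1.11 and 0.78. The stromal target Nr2f2 (COUP-TFII) rose by 1.58 and Hand2, another stromal factor, by 0.70. Relative to vehicle, Nr2f2 lay at −0.46 at 24 h and −2.04 at 2 h, and Hand2 at −0.46 at 24 h and −1.16 at 2 h.

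Among steroid receptors and their cofactors 4 of 22 rose and 9 fell (median −0.19, and −0.35 without 2 h replicate 1). Greb1, a direct target and cofactor of estrogen receptor α, stood at −0.59, −0.48 and −0.51 at 24 h, against 2.72, 2.68 and 2.62 at 2 h and −1.03, −0.91 and −0.93 with vehicle (9.19-fold, limma adjusted p = 2.82e-16). Nrip1, a corepressor, fell by 2.46 and lay −0.09 from vehicle at 24 h. The progesterone receptor gene Pgr fell by 1.06 with its main probe and by 3.22 with the other, and on the main probe it remained 0.92 above vehicle. Esr1 did not pass the test (3.05, 3.18 and 2.98 at 24 h, against 3.44, 3.21 and 2.97 at 2 h, limma adjusted p = 0.369). The inactivating enzymes Hsd17b2, which oxidises estradiol to estrone, and Hsd11b2, which oxidises glucocorticoids, rose by 2.26 and 2.05, although Hsd17b2 was above background on 1 of 3 arrays at 2 h.

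Chemokines and cytokines gave 8 rises and 5 falls among 27, with a median of −0.03 and a mean of 0.37. The median was 0.01 with median centring of each array, and −0.28 (without 24 h replicate 1) to 0.10 (without 24 h replicate 2) with one array left out. Il15, a growth factor of NK cells, stood at −2.45, −2.36 and −2.33 at 24 h, against −4.43, −5.00 and −4.95 at 2 h and −2.26, −2.27 and −2.37 with vehicle. Il33, an epithelial and stromal alarmin, rose by 2.20 and Ccl28, a mucosal chemokine, by 1.92. Cxcl10 rose by 3.29 (limma adjusted p = 0.00165) and Cxcl5, a neutrophil attractant, by 2.23 (limma adjusted p = 0.0447). Without 24 h replicates 1 and 2, Cxcl10 changed by 2.53 and Cxcl5 by 1.60, with limma adjusted p of 0.0868 and 0.351. Cxcl5 also missed the threshold when one of 4 arrays was left out, with limma adjusted p from 0.0914 (24 h replicate 1) to 0.124 (2 h replicate 3). It did so as well with no scaling (limma adjusted p = 0.0522), quantile normalization (0.052), no filter on dim probes (0.0576) and the 9 F1 arrays fitted alone (0.153).

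Few leukocyte markers were called. Of 7 neutrophil markers none rose and 1 fell, of 10 macrophage markers 3 rose and none fell, and of 4 eosinophil markers none rose and 1 fell. Of 10 T and NK cell markers, none rose and 5 fell, and of 7 mast cell markers none rose and 4 fell, the largest in Kit, a receptor gene not confined to mast cells (−1.99). Of 6 B and plasma cell markers 1 rose, and of 4 erythroid markers 3 rose (median 0.53).

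Interferon-induced genes were higher at 24 h, 18 of 24 with 1 lower (median 1.70). Relative to vehicle the medians were 1.02 at 24 h and −0.20 at 2 h, and inside one slide the median change was 1.05 in B6 and 1.19 in C3H. Oasl1, an antiviral oligoadenylate synthetase-like gene, stood at 0.04, −0.08 and −0.22 at 24 h, against −3.51, −3.37 and −3.54 at 2 h and −3.13, −2.77 and −3.21 with vehicle (10.4-fold, limma adjusted p = 1.53e-10). Ifit3 stood at 2.42, 2.21 and 2.17 at 24 h, against −0.71, −0.62 and −0.71 at 2 h and 1.17, 1.30 and 1.18 with vehicle, so that the vehicle arrays lay between the times. Oas3 (2.81) and Oas1a (2.53), double-stranded RNA sensors, rose as well. The fall was Irf8, a myeloid factor (−1.11).

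Circadian clock genes were mostly lower, 14 of 19 with 3 higher (median −0.79). The repressor gene Per2 stood at −0.74, −0.44 and −0.72 at 24 h, against 1.85, 1.93 and 2.09 at 2 h and 0.68, 0.70 and 0.56 with vehicle (6.01-fold, limma adjusted p = 2.35e-15). Cry2 fell by 2.94 and Nfil3, an output repressor, by 3.1, while the output activator Dbp rose by 1.74 to 4.62, 4.64 and 4.95, below its vehicle arrays (5.58, 5.35 and 5.57). The labels give no hour of the day for collection, so clock time and time after E2 cannot be told apart.

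The BCL2 family, which sets the threshold for cell death, had 9 rises and 8 falls among 20, where 38.4% and 30.2% of all genes rose and fell. Its median was 0.13, and 0.07 without 2 h replicate 3. The pro-apoptotic gene Bmf stood at 2.29, 2.46 and 2.45 at 24 h, against −0.79, −1.49 and −1.28 at 2 h and 2.91, 2.81 and 2.99 with vehicle, a 12-fold rise (limma adjusted p = 1.55e-10) that ended −0.50 from vehicle. Bcl2l11, which encodes BIM, fell by 1.87 and the pro-survival gene Bcl2 by 1.43. Bad rose by 1.79, and Hrk was at least 3.08-fold lower with no 24 h array above background.

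**Figure D4:**
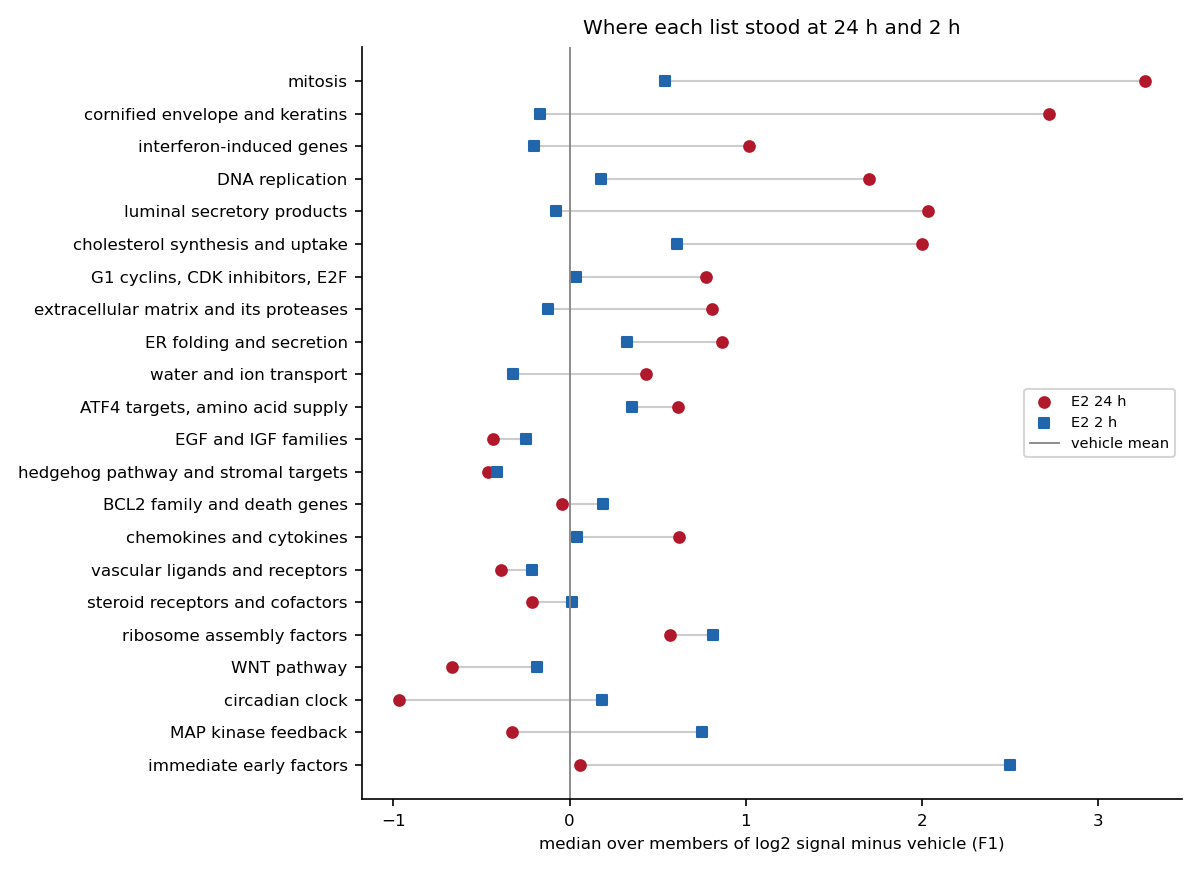
Median over the members of each list of the log2 difference from the vehicle mean (x axis), at 24 h (circles) and 2 h (squares) after E2 in F1. Mitosis lies at 3.27 at 24 h and 0.54 at 2 h, and the immediate early factors at 0.06 and 2.50.

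Whether the late-against-early difference of F1 departed from that of its parents was tested as a difference of differences in the same limma fit. Against B6, 1928 genes differed (8.82%), 1006 with a higher value in F1 (4.6%) and 922 with a lower one (4.22%). That split depended on scaling. It was 568 higher and 1658 lower with median centring, 299 and 646 with no scaling, and 805 and 800 with quantile normalization. Against C3H, 738 differed (3.38%), 584 higher (2.67%) and 154 lower (0.704%). Differences of at least 2-fold were found in 236 genes (1.08%) against B6 and 424 (1.94%) against C3H. With one F1 array left out the counts were 1132 to 2572 against B6 and 206 to 487 against C3H. These contrasts share the 6 F1 arrays, and each parent contributes its own 6. F1 and parent arrays lay on different slides, so that slide and strain cannot be told apart in them. In B6 alone 68.7% of genes were called between the times and in C3H 70.4%.

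Ribosome assembly factors and folding genes of the endoplasmic reticulum were among the lists with most differences from B6. Of 25 ribosome assembly factors, 12 had a lower late-minus-early value in F1 than in B6 and none a higher one, where over all genes 4.22% were lower. With median centring 15 of the 25 were lower, where 1658 of all genes were. Rrs1 differed by −0.59 (limma adjusted p = 0.00723) and Dkc1 by −0.64 (0.017). The list median was −0.47 in F1, against 0.10 in B6 and −0.46 in C3H. None of its members differed from C3H by the limma test, where over all genes 3.38% did, and 6 had an unadjusted p under 0.05. With one F1 array left out, the count of members lower than in B6 ran from 6 to 17. Of 26 folding genes, 13 had a lower value in F1 than in B6 and 1 a higher one (6 to 15 lower over the alternatives). Calr, a calcium-binding chaperone, differed by −0.74 and Pdia6, a disulphide isomerase with probes of both signs, by −0.72. None of the 26 differed from C3H, with 4 at an unadjusted p under 0.05. In lists of this size the lack of calls against C3H lies near the 3.38% of all genes. It does not show that F1 and C3H were alike.

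Other lists held differences as well. Of 27 DNA replication genes, 6 had a higher value in F1 than in C3H, where 2.67% of all genes did. In 5 the value was lower than in B6 (4.22% of all genes). With one F1 array left out these counts were 3 to 5 and 0 to 6, and with no scaling none differed from C3H. Against B6, 4 of 19 clock genes and 4 of 26 vascular genes were higher (4.6% of all genes) and 1 of each lower. Single members of these and other lists follow. Wnt9a changed by −2.11 in F1, against −2.87 in B6 and 1.22 in C3H, and the difference was 0.75 from B6 and −3.33 from C3H (limma adjusted p = 0.00106 and 7.65e-13). Its sign in C3H was thus opposite to that in F1 and B6. Hbegf changed by −1.77 in F1, against −3.49 in B6 and −1.30 in C3H, with differences of 1.72 and −0.47. Has1 fell less in F1 than in C3H (difference 2.27, limma adjusted p = 0.0357). That call was lost without 24 h replicate 1 and without each of the 2 h replicates in turn. Among the leading genes, Crtac1 differed from C3H by 3.04, Wfdc18 from B6 by 1.72, Grin2c from B6 by −1.72 and Gdf15 from B6 by −0.66, with limma adjusted p from 6.35e-05 (Grin2c) to 0.0457 (Gdf15). None of the 25 immediate early factors differed from either parent by the limma test, with 4 at an unadjusted p under 0.05 against each, which does not show that they were alike.

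In 34 genes (0.156%) F1 differed from both parents with one sign, 29 higher (0.133%) and 5 lower (0.0229%). Naip1 stood at −1.84, −2.41 and −1.78 at 24 h, with no 2 h array above background, so that its change in F1 has only the lower bound given above. Rybp, a Polycomb complex subunit, stood at 1.74, 1.94 and 1.79 at 24 h, against 3.51, 3.62 and 3.70 at 2 h, and fell by 1.79, where the change was −1.44 in B6 and −1.42 in C3H.

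**Figure D5:**
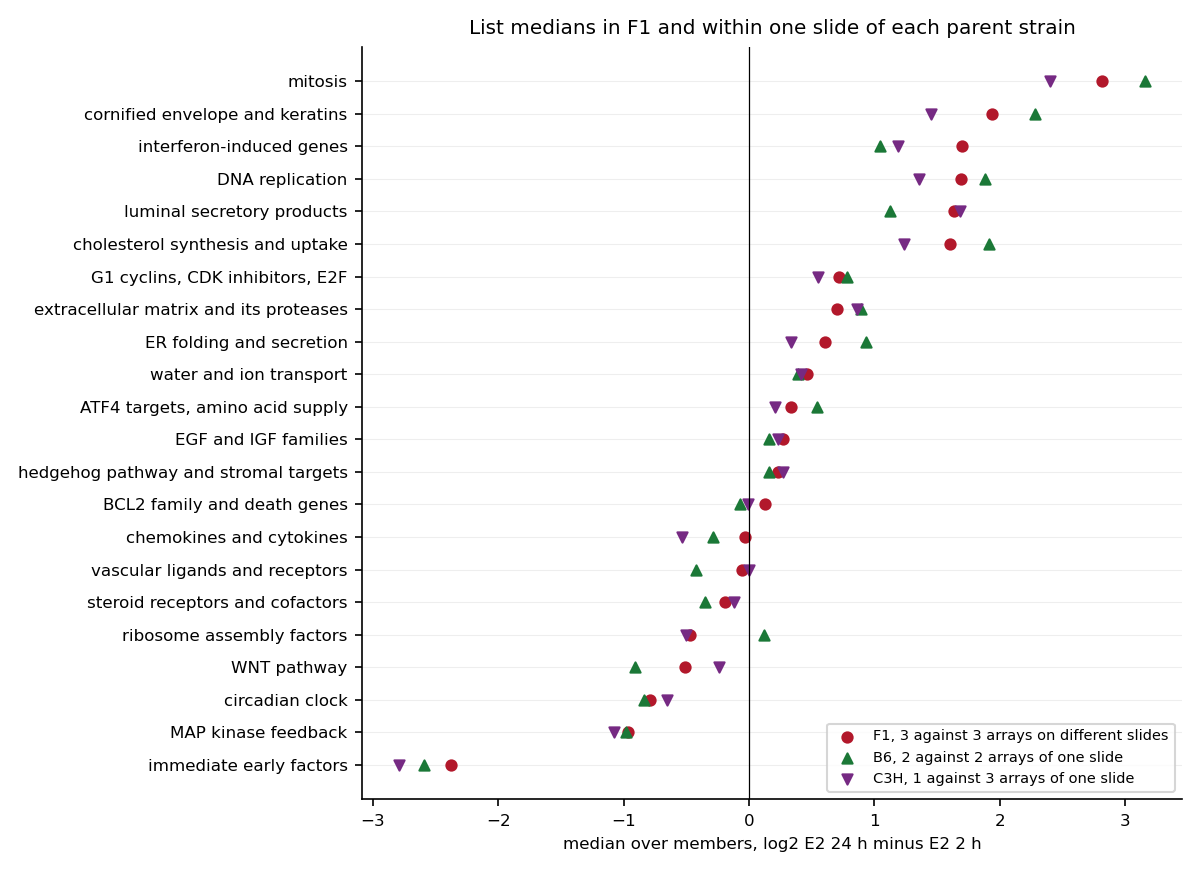
List medians of log2 signal at 24 h minus 2 h (x axis) in F1 (circles, 3 against 3 arrays on different slides), in B6 inside slide 2 (upward triangles, 2 against 2 arrays) and in C3H inside slide 4 (downward triangles, 1 against 3 arrays). Mitosis lies at 2.81 in F1, 3.16 in B6 and 2.40 in C3H, and ribosome assembly at −0.47, 0.12 and −0.50.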

How the data were processed

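Per the labels' protocols, Cy3-labelled cRNA made from 500 ng of total RNA was hybridised (1.65 µg, 17 h) to 1-colour Agilent whole mouse genome arrays. Per the file headers, the deposited processed signal is a linear intensity that Feature Extraction 9.5.3.1 background-subtracted and detrended within each array, with low values replaced by surrogates and no scaling between arrays. The submitters' processing notes name version 9.5. The deposited value table held the same intensity in 27 of 27 columns. Probe coordinates in the headers are on mm7 and are not printed.

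Control spots (1639 of 45018 per array) and spots marked as outliers (48 to 117 per array) were left out, and spots of one probe were averaged, giving 41174 probes. The measure was log2 of the processed intensity minus the 75th percentile of the array. Percentiles of the 6 E2 arrays lay between 1334 and 1579 intensity units. A probe was kept if the scanner software marked it well above background on every array of 1 or more of the 9 groups (32901 probes), and a gene with several (7494 genes) was represented by the one with the highest mean. Symbols came from a RefSeq table. A model of 9 group means over 27 arrays was fitted with limma 3.58.1 (R 4.3.3, 18 residual degrees of freedom). A gene was called where its p, adjusted by Benjamini-Hochberg across the 21861 genes, was below 0.05, and SE is limma's. The precision of each value is limited by 3 arrays per group. Python 3.11.15, pandas 2.3.3, numpy 2.4.6 and matplotlib 3.10.9 read and drew the values.

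The members and the gene lists (630 of 661 entries measured) were chosen with earlier results of these data known. Of the unmeasured entries, 11 had no probe under their name and 20 no probe above background. Genes named outside the lists were, by rule, the 14 largest rises and falls above background and not overlapping, the 4 largest per direction with a group below background, up to 6 per direction that differed from both parents, and H2-Ea and Nnt as strain checks. In each list the 4 largest called changes were named, with members whose role was needed beside them. Some genes that these rules name are not reported here. Replicate numbers did not pair the samples: deviations of the 24 h and 2 h arrays with one number correlated at 0.101, 0.167 and −0.032. Alternatives covered scaling, background correction, the probe filter, probe averaging, the arrays fitted, a replicate block, slide as a random block, each replicate left out, a 2-fold minimum and, added after the data were seen, the removal of both 24 h arrays with raised squamous keratins.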

Additional observations from a re-analysis of the deposited data

Results flagged for a closer look

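The change between 24 h and 2 h differed between F1 and B6 in 1928 genes and between F1 and C3H in 738, by the test of the difference itself. Of the 34 genes that differed from both parents, 6 of the 29 higher ones, picked by size, and 4 of the 5 lower ones are named here. The higher ones not picked include genes well above background on every F1 array, such as Ninj2 (1.07 from B6 and 1.17 from C3H). Differences are log2 changes in F1 minus those in the parent.

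Among genes with a higher value in F1, Cstdc6 differed by 2.02 from B6 and 2.24 from C3H, and Naip1 by 1.84 and 2.05. Both were well above background on 3 of 3 arrays at 24 h and on 0 of 3 at 2 h. Cyp4f15, a cytochrome P450 gene, differed by 2.63 and 1.91, and Slc51b, an organic solute transporter subunit gene, by 1.71 and 2.20, and each was above background on 1 of 3 arrays at 24 h and 0 at 2 h. Cdh26, a cadherin gene, differed by 1.64 and 1.78 with no E2 array of F1 above background. For these 5 genes the differences rest on signals near background and are no measure of size. With normexp background correction Cstdc6 differed by 0.34 and 0.44, Cyp4f15 by 0.22 and 0.14 and Cdh26 by 0.12 and 0.11, none past the threshold (limma adjusted p from 0.106 to 0.573). Slc51b then differed by 0.12 from B6 (limma adjusted p = 0.17) and 0.20 from C3H (0.0472), and Naip1 by 0.54 (0.0256) and 0.76 (0.011). Slc26a3, a chloride and bicarbonate exchanger gene, differed by 1.36 and 1.51, with levels of −5.93, −6.35 and −6.31 at 24 h, against −6.87, −6.91 and −6.70 at 2 h, where 1 of 3 arrays was above background. With normexp these were 0.19 and 0.21 (limma adjusted p = 0.102 and 0.099).

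Among genes with a lower value in F1, all well above background on every F1 array, Mex3a differed by −0.48 and −0.55, Rybp by −0.34 and −0.37, Camsap1 by −0.29 and −0.36, and Dpy19l1 by −0.34 and −0.27. Dpy19l1 stood at 0.54, 0.51 and 0.59 at 24 h, against −0.06, −0.20 and −0.18 at 2 h, a rise of 0.69 in F1 where the change was 1.03 in B6 and 0.95 in C3H. The limma adjusted p of these 20 differences lay between 0.00106 and 0.0435. Each of the 20 missed the threshold under 1 to 13 of the 16 or 17 alternatives run on it. With no scaling of the arrays all 8 differences of Mex3a, Rybp, Camsap1 and Dpy19l1 did so (limma adjusted p from 0.0731 to 0.237). Arrays of a strain and time shared a slide for F1, and the part of slide in these differences was not tested.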

How the results depend on the processing

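The count of genes called between 24 h and 2 h (14990) lay between 12663 and 15386 under the alternatives other than the 2-fold minimum, which left 5382 (2797 higher and 2585 lower). Scaling moved the share of calls that were higher from 56.0% to between 51.2% (no scaling) and 58.6% (median centring), and the median change of all genes from 0.13 to between 0.04 and 0.17. Leaving out one replicate gave 14103 to 14446 calls. The replicate block, in a design whose numbers did not pair the samples, gave 15037 calls, 99.1% of the main ones among them, and slide as a random block gave 14936. Of the 115 genes named for the largest changes, over all genes or within a list, 110 kept their direction and call under all 19 alternatives. None reversed. Krt5, Krt14, Cxcl5 and Cxcl10 lost their call as given above, and Gli2 did so under the 2-fold minimum by construction. Other list members named in the text, such as Myc with its small change, were not among the 115 and were not followed in this way.

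The counts of strain differences depended more on the processing, and the cause was not tested. Against B6 (1928) they were 945 with no scaling, 236 with the 2-fold minimum, 811 with 24 h replicate 3 alone and 1132 to 2572 with one replicate left out. The lowest counts came without 2 h replicate 2 (1132), 2 h replicate 3 (1165) and 24 h replicate 3 (1250). Against C3H (738) they were 434 with no scaling, 483 with no filter on dim probes, 424 with the 2-fold minimum, 71 with 24 h replicate 3 alone and 206 (without 24 h replicate 1) to 487 (without 24 h replicate 2) with one replicate left out, below 738 in all 6 cases. For both parents (34) they were 13 with no scaling, 20 with quantile normalization, 22 with normexp, 20 with no filter, 16 with the 2-fold minimum, 15 with 24 h replicate 3 alone and 11 to 39 with one replicate left out. Fewer arrays also leave fewer degrees of freedom.

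Directions that reversed were those of medians near 0. The chemokine median was 0.010 with median centring, 0.041 without 24 h replicate 3, 0.003 without 2 h replicate 1 and between −0.284 and 0.101 over all removals of one replicate. The vascular median was −0.099 to 0.049 over these removals and 0.032 with 24 h replicate 3 alone. Averaging probes turned the difference of Camsap1 from B6 to 0.099 (limma adjusted p = 0.667). Dim probes limit what can be said of genes near background, where only bounds are given.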

Other observations

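Some gene families outside the lists were read after their values had been seen, and are given as counts with no test of the family. Genes of the proteasome were higher at 24 h in 39 of 49 cases and lower in none, with a median of 0.59 and with Psmd14 at 1.09. Mitochondrial ribosomal proteins rose in 69 of 78 cases and fell in 3 (median 0.69), led by Mrpl34 (1.56). Subunits and assembly factors of respiratory complex I rose in 43 of 44 cases (median 0.84), and the fall was Ndufaf4, an assembly factor, at −1.14. Cytosolic ribosomal proteins rose in 52 of 76 cases and fell in 1 (median 0.23), so that they moved less than the mitochondrial ones in size.

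Hox factors rose in 17 of 32 cases and fell in 1 (median 0.71). Hoxb6 averaged 3.30 at 24 h, 1.29 at 2 h and 2.56 with vehicle, and Hoxa11 3.79, 2.27 and 3.87, the 2 h mean being the lowest for both. The SOCS family, which damps cytokine signalling, fell in 7 of 8 cases (median −0.92). Socs1 averaged 0.97 at 24 h, against 4.66 at 2 h, and Socs3 2.73, against 6.10. Potassium channel subunits changed in both directions, with 23 of 70 higher and 32 lower. Kcnn4, a calcium-activated channel, averaged 0.95 at 24 h and −2.44 at 2 h, while Kcnj4 averaged −3.84 and −0.22.

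Tissue kallikreins fell in 12 of 20 cases and rose in 3 (median −1.92), and the 3 measured copies of α1-antitrypsin all rose (3.08 to 3.15). Both families include near-identical copies, whose probes may share signal, so values of such members are uncertain.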
